A study of Mus musculus with 6 samples.

Results

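The slow-fibre sarcomere genes described here are Myl2, Myl3, Tpm3, Tnnt1 and Tnnc1, with 1 entry that stands for Myh6 and Myh7 jointly. They were taken by symbol from a table of 60 selected probe sets that the authors deposited, where they fill 7 of the 60 rows, out of 45037 probe sets measured on each array. The values that chose these rows are the treated-minus-untreated differences themselves, since the series states a fold change of at least 2 as its criterion. Those differences are therefore given as a description with no test. The smallest fold among the 60 rows was 2.01 (Jph2), and the largest fold below 2 among all probe sets at an unadjusted limma p under 0.05 was 1.99. The smallest member fold was 2.42 (Tnnc1). A fold of at least 2 was seen for 132 of the 45037 probe sets, so it alone does not define the 60 rows. Of those that also had an unadjusted limma p under 0.05, 9 are not listed.

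Microarrays measured RNA of quadriceps from 6 mice of genotype utrn+/-;mdx on the C57BL/10 strain, with 1 array per mouse. Mice of both groups carry the mdx mutation, which removes dystrophin, and have 1 working allele of Utrn, the gene of the dystrophin-related protein utrophin. This combination serves as a model of Duchenne muscular dystrophy, and no mouse without the mutations was among the 6. Treated mice drank water with spironolactone at 37.5 mg/kg per day and lisinopril at 10 mg/kg per day between the ages of 4 and 20 weeks, and untreated mice drank plain water. Spironolactone blocks the mineralocorticoid receptor and lisinopril inhibits angiotensin-converting enzyme. Each group held 3 mice, 2 males (mice 1 and 2) and 1 female (mouse 3), all sampled at 20 weeks. The labels call the mice biological replicates.

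Skeletal muscle fibres are built as slow (type I) or fast (type II) fibres, which use different genes for the same sarcomere parts. In the thick filament, slow fibres use the beta myosin heavy chain of Myh7 with the regulatory light chain of Myl2 and the essential light chain of Myl3. In the thin filament, they use a slow tropomyosin of Tpm3, the tropomyosin-binding subunit troponin T of Tnnt1 and the calcium-binding subunit troponin C of Tnnc1. Most of these genes also serve heart muscle, and mouse quadriceps consists mainly of fast fibres. In whole muscle, fewer slow fibres and less of these RNAs per fibre cannot be told apart.

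The promoters of 3 of the members are shown as a description, and no link between their sequence and the values of the members was tested. These 3 have a single row of their own among the 60 and a single start in the RefSeq table. Each is the 250 bases upstream of the start in GRCm38.p6, 5′ to 3′ on the gene's strand. Capitals mark the E-box (CANNTG, bound by muscle regulatory factors), the MCAT element (CATTCC or its reverse complement, bound by TEAD factors) and TATAAA. No 2 of these marked motifs overlap.
Tnnt1, chr7:4515976-4516225, minus strand: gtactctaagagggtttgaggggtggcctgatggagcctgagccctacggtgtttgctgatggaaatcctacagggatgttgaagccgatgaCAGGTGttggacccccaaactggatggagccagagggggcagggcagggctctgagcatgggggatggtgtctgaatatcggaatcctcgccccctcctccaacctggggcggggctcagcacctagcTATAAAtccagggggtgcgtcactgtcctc
Tnnc1, chr14:31208062-31208311, plus strand: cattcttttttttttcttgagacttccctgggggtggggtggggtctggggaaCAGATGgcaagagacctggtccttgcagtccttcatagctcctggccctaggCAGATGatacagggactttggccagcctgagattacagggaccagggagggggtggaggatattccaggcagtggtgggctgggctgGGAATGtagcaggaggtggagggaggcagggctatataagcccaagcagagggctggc
Myl3, chr9:110763428-110763677, plus strand: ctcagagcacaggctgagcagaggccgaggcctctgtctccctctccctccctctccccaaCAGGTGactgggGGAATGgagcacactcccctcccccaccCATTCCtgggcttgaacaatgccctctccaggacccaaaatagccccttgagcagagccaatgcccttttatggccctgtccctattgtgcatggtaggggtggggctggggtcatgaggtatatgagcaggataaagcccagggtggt
The 3 sequences each hold at least 1 E-box, and TATAAA lies 30 bases before the start of Tnnt1. MCAT elements lie 58 bases before the start of Tnnc1 and 177 and 149 bases before that of Myl3.

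Over the 10 windows that the table gives for the 7 genes, an E-box was found on either strand in 10 and an MCAT element in 4, in Tnnc1, Myl3, Myh6 and Myh7. Of all 32851 promoter windows of the same length, 66.2% held an E-box and 12.6% an MCAT element. TATAAA was found in 2 member windows (12.4% of all windows), a CArG box, the serum response factor motif, in 1 (1.47%), and the MEF2 motif in 0 (2.92%). Myl2, Tpm3 and Myh7 have 2 listed starts each, and the probe sets do not tell which start is in use. These matches describe the letters of the windows only. Myh6 and Myh7 neighbour each other on chromosome 14, with 0 protein-coding genes between them in the RefSeq table.

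The 3 thick-filament probe sets all had lower means in treated mice. Myl2 (probe set 1448394_at) had log2 values of 5.33, 5.79 and 8.88 in treated mice 1, 2 and 3, against 6.80, 11.72 and 13.24 in untreated mice 1, 2 and 3. The groups overlapped, because untreated mouse 1 lay below treated mouse 3, the female. Myl2 averaged 6.67 ± 1.93 in treated and 10.59 ± 3.37 in untreated mice (SD, n = 3 each), a log2 difference of -3.92 or 15.1-fold lower. This was the lowest treated-minus-untreated difference of the 45037 probe sets.

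The joint Myh6 and Myh7 probe set (1448554_s_at), for the alpha and beta cardiac myosin heavy chains, had log2 values of 7.14, 6.95 and 7.97 in treated mice 1, 2 and 3, against 7.32, 9.74 and 11.37 in untreated mice. Its probes match both genes, so the RNA it measured cannot be assigned to either. It averaged 7.35 ± 0.54 in treated and 9.48 ± 2.04 in untreated mice (SD, n = 3 each). The log2 difference was -2.13, or 4.37-fold lower in treated mice. The Myl3 probe set (1427769_x_at) had log2 values of 6.59, 6.42 and 7.29 in treated mice 1, 2 and 3, against 6.73, 8.67 and 8.90 in untreated mice. It averaged 6.77 ± 0.46 in treated and 8.10 ± 1.20 in untreated mice (SD, n = 3 each), 2.51-fold lower in treated mice (log2 difference -1.33), and its identifier marks it as a set whose probes may match other transcripts. For both probe sets untreated mice 2 and 3 lay above every treated mouse and untreated mouse 1 lay inside the treated range.

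The 4 thin-filament probe sets also had lower means in treated mice, and untreated mouse 3 was the highest of the 6 mice on each. Tpm3 fills 2 of the listed rows. On probe set 1449996_a_at it had log2 values of 6.33, 7.26 and 8.16 in treated mice 1, 2 and 3, against 7.65, 10.34 and 11.61 in untreated mice. On probe set 1449997_at it had log2 values of 6.56, 7.04 and 7.88 in treated mice, against 7.39, 10.10 and 11.47 in untreated mice. The means were 7.25 ± 0.91 in treated and 9.87 ± 2.03 in untreated mice on 1449996_a_at, and 7.16 ± 0.67 in treated and 9.66 ± 2.08 in untreated mice on 1449997_at (SD, n = 3 each). The differences were alike, -2.62 and -2.50 on the log2 scale, or 6.14-fold and 5.64-fold lower in treated mice. Tpm3 also encodes cytoskeletal tropomyosins outside the sarcomere, and the files do not say which transcripts the probe sets match. Any further probe sets of the member genes on the array carry no gene name here and were not examined.

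Slow troponin T (Tnnt1, probe set 1419606_a_at) had log2 values of 8.79, 8.69 and 9.81 in treated mice 1, 2 and 3, against 9.64, 10.63 and 11.98 in untreated mice. The treated female again lay above untreated mouse 1. Tnnt1 averaged 9.10 ± 0.62 in treated and 10.75 ± 1.17 in untreated mice (SD, n = 3 each), 3.15-fold lower in treated mice (log2 difference -1.65). Slow and cardiac troponin C (Tnnc1, probe set 1418370_at) had log2 values of 9.67, 10.09 and 10.45 in treated mice, against 10.60, 11.07 and 12.37 in untreated mice. It was the 1 member probe set of 7 whose groups did not overlap, with the lowest untreated value just above the highest treated one. Among all probe sets 5.22% had every treated mouse below every untreated one. Tnnc1 averaged 10.07 ± 0.39 in treated and 11.34 ± 0.92 in untreated mice (SD, n = 3 each), and its log2 difference of -1.27 was the smallest of the members.

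**Figure D1:**
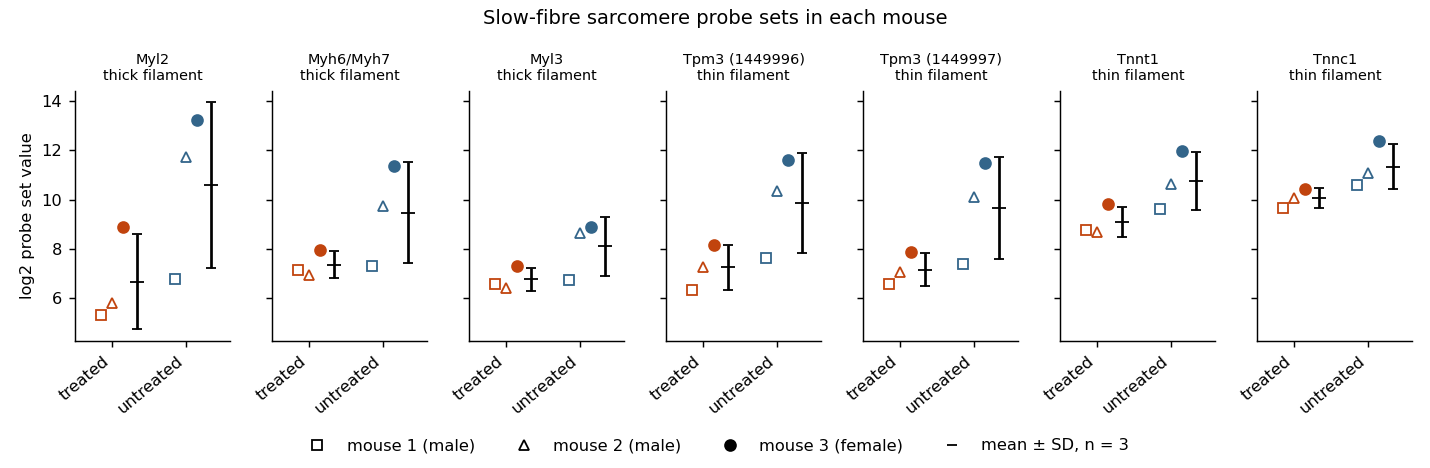
Log2 value of each of the 7 member probe sets in each mouse, treated left of untreated, with open squares and triangles for the males and filled circles for the female, and group means ± SD (n = 3) as black bars. In every panel the female is the highest point of its group, and untreated mouse 1 is the lowest untreated point.

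The median difference was -2.13 for the 3 thick-filament and -2.08 for the 4 thin-filament probe sets on the log2 scale, against 0.03 over all 45037 probe sets. A fold of at least 2 lower in treated mice was seen for 7 of 7 members and for 0.189% of all probe sets, and the choice of the members fixes this count. By limma 0 probe sets passed an adjusted p of 0.05 for treatment, with 3443 at an unadjusted p under 0.05.

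The spread between the untreated mice exceeded the difference between the group means for 7 of 7 member probe sets. Its share over all probe sets was not computed, so nothing particular to the members is read from that count. From the lowest to the highest untreated mouse Myl2 spanned 87.3-fold, the joint Myh6 and Myh7 probe set 16.5-fold, Tpm3 15.6-fold and 17.0-fold on its probe sets, Tnnt1 5.05-fold, Myl3 4.53-fold and Tnnc1 3.41-fold. Among treated mice the spans were narrower, between 1.72-fold for Tnnc1 and 11.7-fold for Myl2. Ranked by SD between untreated mice, Myl2 held rank 4 from the highest among the 45037 probe sets, the Tpm3 probe sets and the joint Myh6 and Myh7 probe set held ranks 23 to 25, and Tnnc1 held rank 415. The median SD of the members was 0.62 in treated and 2.03 in untreated mice, against 0.12 and 0.15 over all probe sets. An SD above 1 on the log2 scale in untreated mice was found for 6 of 7 members and 0.653% of all probe sets. An untreated range over 2 log2 units was also found for 6 of 7 members, all but Tnnc1, against 0.566% of all probe sets. The members were chosen on differences that these same untreated values enter, so these ranks and shares are a description only.

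**Figure D2:**
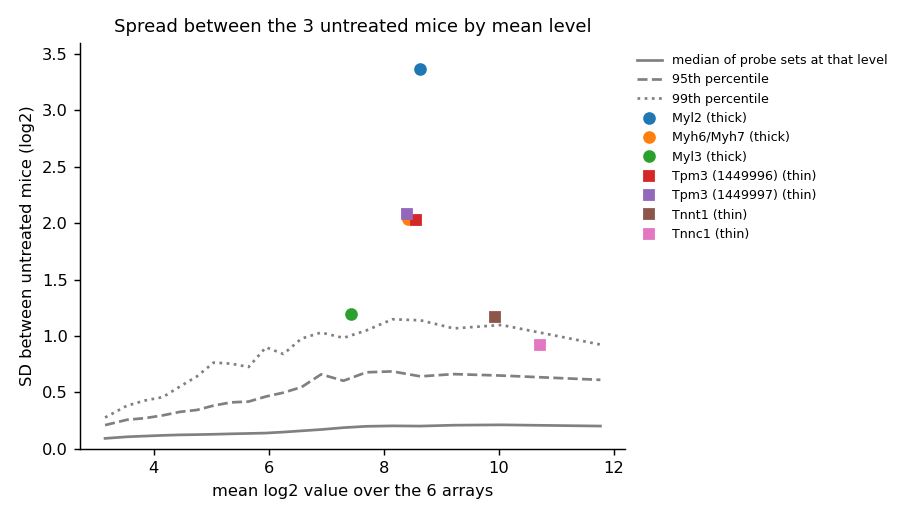
SD between the 3 untreated mice (log2) against the mean log2 value over the 6 arrays for the 7 member probe sets (circles thick filament, squares thin filament), with grey lines for the median, 95th and 99th percentile of all probe sets in 20 bins of mean level. Myl2 lies highest at 3.37, and Tnnc1 lies lowest of the members at 0.92.

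The members moved together mouse by mouse. Untreated mouse 3 was the highest of the 6 mice on 7 of 7 probe sets and untreated mouse 2 the second highest on 7 of 7. Treated mice 1 and 2 held the lowest and second lowest places on 7 of 7, in either order. Treated mouse 3 was above untreated mouse 1 on 6 of 7 probe sets, with Tnnc1 the exception. The members were chosen on differences that these same values enter, and shares of these orders over all probe sets were not computed. The counts are therefore a description only.

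After the group means were taken out, Pearson's r between 2 member probe sets ranged from 0.77 to 0.99 over the 21 pairs, with a median of 0.95. These r values describe 6 arrays with 2 means removed and share the same arrays, so no p is given. The median was 0.95 among the 3 thick-filament pairs, 0.93 among the 6 thin-filament pairs and 0.95 for the 12 pairs of a thick with a thin member. The lowest pair, Myl3 with Tnnc1 at 0.77, joined a thick with a thin member. The lowest r was 0.95 among the thick-filament pairs and 0.91 among the thin-filament pairs. One of the thin-filament pairs is Tpm3 with itself on its 2 probe sets (0.99). The median r across the filaments thus lay between the medians of the filaments themselves, while its lowest values were lower.

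The size of the movement differed between members. Per log2 unit of change in the mean of the other member genes, again within groups, Myl2 changed by 2.45 log2 units. Tpm3 changed by 1.17 and 1.15 log2 units on its probe sets and the joint Myh6 and Myh7 probe set by 1.09. Tnnt1 changed by 0.62, Myl3 by 0.60 and Tnnc1 by 0.42 log2 units. The steepest and the shallowest member thus lay in different filaments. These slopes compare probe sets whose response on the array may differ.

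**Figure D3:**
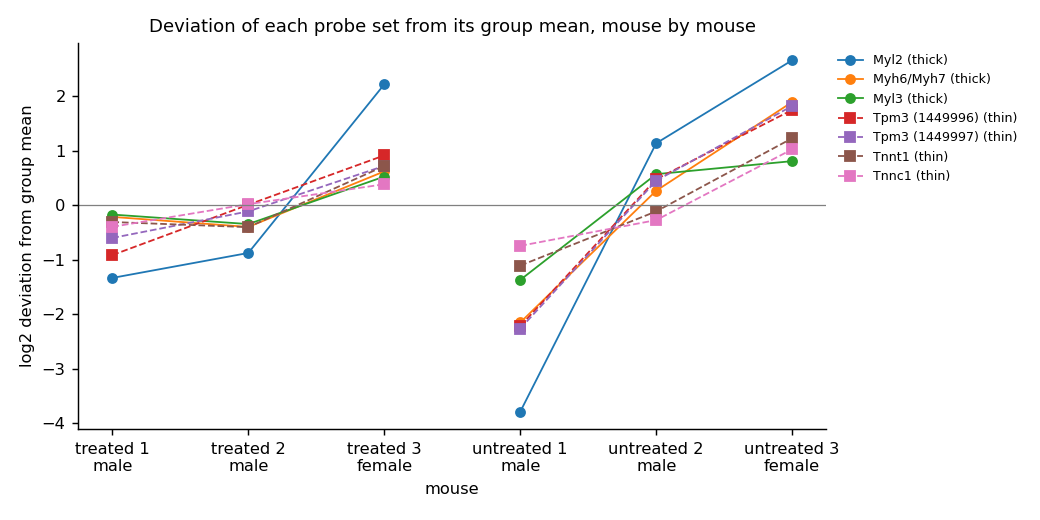
Deviation of each member probe set from its group mean (log2) in each mouse, with solid lines and circles for thick-filament and dashed lines and squares for thin-filament probe sets; the lines join points of 1 probe set and stand for no order of the mice. Untreated mouse 1 lies below 0 and both females above 0 for every probe set, with Myl2 deviating furthest.

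The signal of 3′ over 5′ ends of 4 poly-A spike controls, RNAs added before labelling, ran in nearly the same order. The mean 3′-minus-5′ log2 signal was 1.11, 1.27 and 1.34 in treated mice 1, 2 and 3, against 1.22, 1.41 and 1.58 in untreated mice 1, 2 and 3. The same measure for the endogenous Gapdh transcript was 0.16, 0.24 and 0.19 in treated mice, against 0.22, 0.52 and 0.59 in untreated mice. Both were highest in untreated mice 2 and 3, the mice with the highest member values. The spike measure had r = 0.94 with the mean of the member genes over the 6 mice and 0.93 within groups. With the spike measure as a term in the fit, 7 of 7 member folds shrank by a factor above 1.5, and all 7 stayed lower in treated mice. Myl2 was then 2.24-fold lower, Tpm3 1.93-fold and 1.88-fold, Tnnt1 1.66-fold, the joint Myh6 and Myh7 probe set 1.61-fold, Tnnc1 1.46-fold and Myl3 1.42-fold.

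The size of the differences depended on single mice. Without untreated mouse 1 the difference was 56.3-fold for Myl2, 13.3-fold and 12.4-fold for Tpm3, 9.21-fold for the joint Myh6 and Myh7 probe set and 4.05-fold for Myl3. Without untreated mouse 3 it was 6.02-fold for Myl2, 3.35-fold and 3.01-fold for Tpm3, 2.27-fold for the joint Myh6 and Myh7 probe set and 2.06-fold for Tnnt1. Myl2 was 9.52-fold lower without treated mouse 1 and 32.6-fold lower without treated mouse 3, and 8.01-fold lower with array weights. No member changed its direction when any 1 mouse was left out. The members were chosen on the differences of these same mice, so nothing is read from that.

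**Figure D4:**
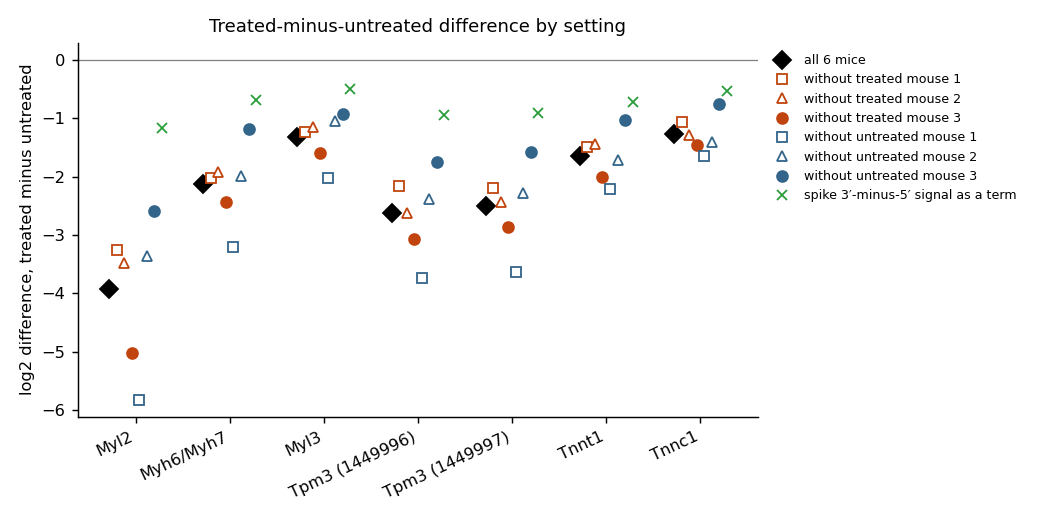
Log2 difference, treated minus untreated, of each member probe set with all 6 mice (black diamonds), without each mouse in turn (red for a treated, blue for an untreated mouse) and with the spike 3′-minus-5′ signal as a term (green crosses). All points lie below 0, and those of Myl2 run between -5.81 and -1.17.

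Sex was not used to choose the members, but the differences that chose them include the untreated female, the highest mouse on each. Without her the fold was 1.90 for Myl3 and 1.70 for Tnnc1, below the limit of 2. The counts by sex are thus not independent of that choice. The female was the highest of the 3 mice in both groups for 7 of 7 member probe sets, against 9.27% of all probe sets. With treatment as a term, the female-minus-male log2 difference was 3.65 for Myl2 (95% interval 0.89 to 6.42) and 1.88 for the joint Myh6 and Myh7 probe set (0.27 to 3.50). It was 1.46 for Tnnt1 (0.76 to 2.15) and 1.05 for Tnnc1 (0.45 to 1.66). Tpm3 had 1.99 (0.30 to 3.69) and 1.90 (0.19 to 3.62) on its probe sets, and Myl3 had 1.00 (-0.12 to 2.12). With 1 mouse left out the difference ran between 2.55 and 4.66 for Myl2, between 0.93 and 2.84 for the joint Myh6 and Myh7 probe set and between 1.08 and 2.73 for Tpm3 probe set 1449997_at. Without untreated mouse 3, a female, all 7 differences stayed above 0 but the interval spanned 0 for 6 of 7, at -0.85 to 7.50 for Myl2 and -1.14 to 3.00 for the joint Myh6 and Myh7 probe set.

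With the spike 3′-minus-5′ signal as a further term, the female-minus-male difference turned to -0.15 and -0.13 for Tpm3 and -0.044 for Myl3, and the other 4 probe sets stayed above 0, with intervals that spanned 0 for 7 of 7. None of the 7 passed the adjusted threshold for sex (limma adjusted p = 0.849 for each). At an unadjusted p under 0.05, 6 of 7 were higher in females, against 2.68% of all probe sets. That count was 1 of 7, Tnnt1, without untreated mouse 3, 4 of 7 without treated mouse 1, and 5 to 7 without any 1 of the other mice. It was 0 of 7 with the spike term and 0 of 7 with no treatment term. The 7 probe sets move together and rest on 2 females, so these are not 7 separate observations. Over all probe sets limma called 4 for sex (0.00888%), none of them a member. Of the total sum of squares of a member probe set, sex held 22.3% to 37.1% and treatment 43.3% to 55.0%, and the rest after both and their interaction was 4.48% to 32.0%. The treatment part comes from the differences that chose the members, and the sex part rests on the 2 females. Neither was computed over all probe sets, so they are a description only.

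The treated-minus-untreated difference was negative within males and within females for 7 of 7 probe sets, and for 25.1% of all probe sets. The members were chosen on the mean of these same mice, so nothing is read from that count. For Myl2 the treated mice were 20.5-fold lower in the females (1 against 1) and 13.0-fold lower in the males (2 against 2). For the joint Myh6 and Myh7 probe set they were 10.5-fold lower in the females and 2.81-fold lower in the males. The difference was larger in females for 7 of 7, but the interaction of treatment with sex passed for 0 of 7 (limma adjusted p = 0.952 for Tnnc1 and 0.9998 for each of the others). At an unadjusted p under 0.05 the interaction was lower for 1 of 7, Tnnc1 (2.71% of all probe sets). Each group holds 1 female, who is assumed to vary like the males. The count of larger differences in females rests on these 2 mice, and its share over all probe sets was not computed.

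**Figure D5:**
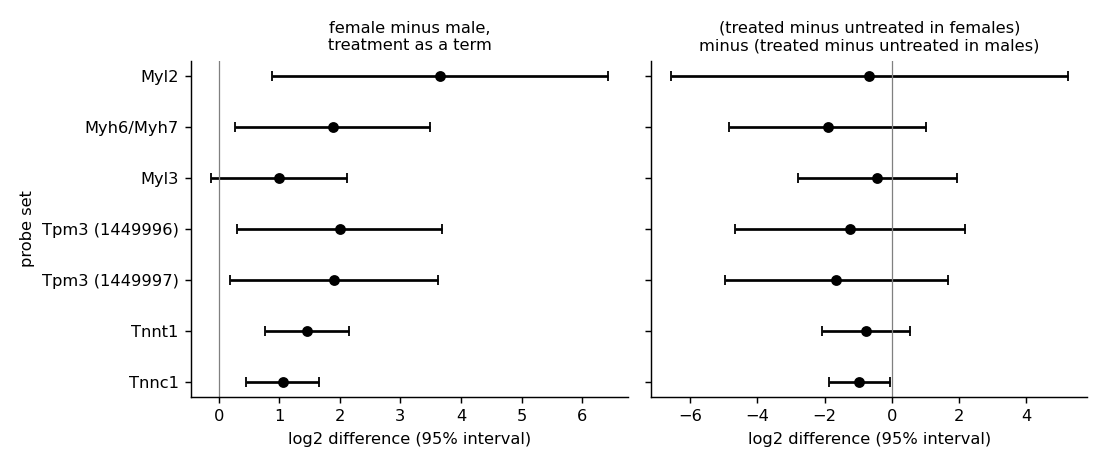
Left, female-minus-male log2 difference of each member probe set with treatment as a term; right, the treatment difference in females minus that in males; points are limma estimates with 95% intervals. On the left all points are above 0 and the interval of Myl3 crosses 0, while on the right all are below 0 and the interval of Tnnc1 alone does not cross 0.

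Of 12 genes on a list of slow-fibre sarcomere and calcium handling genes, 5 are named singly in the deposited table, and these are members themselves. The joint member entry also names Myh7 of this list and Myh6 of the cardiac list. Apart from that entry, none of 15 fast-fibre, 7 embryonic and neonatal fibre, 7 cardiac, 5 macrophage, 5 fibroblast or 11 slow-programme regulator genes is named there. Whether fast-fibre genes moved the other way, and whether the tissue carries its expected fast-fibre markers, was therefore not tested. Of 8 adipocyte markers 4 are named (Cfd, Retn, Cidec and Pck1), with a mean log2 value of 9.40, 8.05 and 9.82 in treated mice 1, 2 and 3, against 7.95, 7.54 and 8.20 in untreated mice. These did not follow the order of the slow-fibre genes. Of 4 Schwann cell markers the named one, the myelin gene Mbp, had 7.30, 7.77 and 7.28 in treated mice, against 8.03, 8.63 and 8.99 in untreated mice. The part of other cell types in the slow-fibre differences was not tested.

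Among the other 45 single genes of the deposited table, those whose pattern over the 6 mice was most like the mean of the member genes were Prg4, Ahr, Cpne8 and Mid1ip1. Prg4, which encodes the joint lubricant lubricin, had r = 0.98 over the 6 mice and 0.96 after group means were taken out. It had log2 values of 9.81, 10.30 and 10.61 in treated mice, against 10.41, 12.43 and 12.89 in untreated mice. Ahr, the aryl hydrocarbon receptor, had r = 0.95, Cpne8, a copine, 0.95, and Mid1ip1, a lipogenic regulator, 0.94. At the other end were Cited4, a CBP/p300-interacting transactivator, with r = -0.99, and D4Wsu53e, with r = -0.99. Cited4 had log2 values of 8.78, 8.59 and 8.28 in treated mice, against 8.36, 7.26 and 6.37 in untreated mice, the reverse of the order of the member mean. All these genes were selected on the same contrast as the members, and no p is given for them.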

How the data were processed

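The deposited values are log2 probe set summaries, made by the authors, for 6 arrays. RMA, Transcriptome Analysis Console and Affymetrix Expression Console are named in the submitters' processing notes, which assign them no steps. For the settings, the array annotation and the genome build, each is not given in the sources used here. Where RMA made the values, differences of dim probe sets are compressed and their folds understated. The 64 control probe sets were left out. The authors' deposited table of 60 probe sets gave the gene names, and its log2 values differed from the full table by at most 0.00033.

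All 45037 probe sets were fitted with limma 3.58.1 in R 4.3.3 (lmFit, eBayes; two-sided; Benjamini-Hochberg over all probe sets; threshold 0.05), checked first on simulated data. Contrasts were treatment with no covariate, sex with treatment as a term, and their interaction. Errors are SDs between mice or moderated 95% intervals, and 3 arrays per group limit the precision. Groups and sex came from the labels. The members and lists were chosen with earlier results of these data known. All member probe sets are named, with the 4 genes most like and the 2 least like their mean by Pearson's r. Entrez identifiers of the members all matched RefSeq symbols (GRCm38.p6), and promoter windows came from a RefSeq table of that build. Alternatives were other scalings, a level filter, left-out mice, sex, a replicate block, array weights and a spike term.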

Additional observations from a re-analysis of the deposited data

How the results depend on the processing

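Treatment calls stayed at 0 under every alternative run. Sex calls, 4 in the main setting, were 2 after median centring of the arrays, 1 among brighter probe sets, 0 with the spike term, 8 with no treatment term and 0 to 5 when 1 mouse was left out, and no member was among them. With the spike term the female-minus-male log2 difference turned to -0.15 and -0.13 for Tpm3 and -0.044 for Myl3. With the same term the median treatment difference was -0.69 for the thick filament, against -2.13, and -0.82 for the thin filament, against -2.08. The median r within groups was 0.89 to 0.97 when 1 mouse was left out. Of all probe sets, 85 were 2-fold or more lower in treated mice, against 398 without untreated mouse 1, 214 without treated mouse 2, 110 after median centring and 29 with the spike term. Probe sets lower in treated mice at an unadjusted p under 0.05 numbered 1461, with 1982 higher, against 2201 lower and 1194 higher after centring. When 1 mouse was left out the lower count ran between 673 (without treated mouse 1) and 3641 (without untreated mouse 1), and was 718 without untreated mouse 2. The count in both directions, 3443, ran between 1434 and 7456. Those higher in females numbered 1205, and 350 to 3342 when 1 mouse was left out. The causes were not tested.

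Whether the replicate numbers pair the mice cannot be settled with 3 mice per group. Deviations of same-numbered mice correlated at 0.52, -0.08 and 0.18 for numbers 1, 2 and 3. Treated mice 1 and 3 correlated best with their own number, and treated mouse 2 did not. Mouse 3 is the female of each group, so a match of number 3 cannot be told apart from a match of sex. With the replicate block limma called 0 probe sets, with 5124 at an unadjusted p under 0.05 against 3443, and the member differences are the same by construction.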

Other observations

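Of the 45030 other probe sets, 274 had a Pearson's r of at least 0.95 with the mean of the member genes over the 6 mice, and 521 had an r of -0.95 or lower. Of these, 9 and 9 spanned at least 2 log2 units over the mice, and 7 of the first 9 carry no gene name in the deposited table. Probe set 1448553_at, picked after its values were seen as the widest of these, is not paired with a gene by the deposited files. It had log2 values of 5.47, 5.07 and 7.92 in treated mice 1, 2 and 3, against 5.73, 10.20 and 11.99 in untreated mice. Its r with the member mean was 0.99 over the 6 mice and 0.99 after group means were taken out. It averaged 6.15 ± 1.54 in treated and 9.30 ± 3.22 in untreated mice (SD, n = 3 each), or 8.89-fold lower in treated mice, with overlapping groups, and it is not among the 60 listed probe sets.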
